A study of Homo sapiens with 8 samples.

Results

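The 31 genes described here carry cholesterol through human cells: the enzymes of its synthesis, the sterol sensors that control those enzymes, a regulator of lipoprotein uptake, the exporters, the storage enzyme and the sterol-activated receptors. They were chosen by name, and all 31 were found by symbol among the 38010 genes of the deposited table of estimated counts. All 31 also passed the filter on low counts, which left 15184 genes in the test.

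Bulk RNA-seq was made from confluent cultures of Ea.hy926, a human line obtained by fusing umbilical vein endothelial cells with lung carcinoma cells. The Rho0 derivative, deficient in oxidative phosphorylation, was compared with the parental line (Eahy), with 4 biological replicates of each, to ask what loss of respiration changes in resting cells. No drug or further genotype is given for either line. Each condition is a single cell line, so differences between Rho0 and Eahy include whatever else separates the lines, and p-values measure only the spread between cultures.

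Cholesterol is built from acetyl-CoA through mevalonate, isoprenoid diphosphates, squalene and lanosterol. When the membranes of the endoplasmic reticulum hold little sterol, the escort protein SCAP carries the transcription factor SREBP2 to the Golgi, where proteases release its active part, which switches on the synthesis genes. When sterol is plentiful, the INSIG proteins hold SCAP back, and oxysterols activate the liver X receptors (LXR), which switch on the exporters ABCA1 and ABCG1. Below, SREBP2-driven means the 21 members commonly listed as targets of that factor, and LXR-driven means ABCA1, ABCG1, MYLIP, SREBF1 and NR1H3, all from textbook knowledge and not from these data. A target name here is a label of the gene, not a measurement of factor activity.

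Loss of mitochondrial transcripts, the check on the line labels, was seen in every Rho0 library. The 13 protein-coding genes of mitochondrial DNA took 0.0409 ± 0.0720% of counts in Rho0 and 18.5 ± 2.21% in Eahy (SD, n = 4 each), with a two-sided exact permutation p of 0.0286, the smallest that 70 arrangements allow. Rho0 replicate 2 held 0.149%, and the other Rho0 libraries held 0.00296% to 0.00756%. Totals ran from 11721708 to 37203507 estimated counts in Rho0 and from 23366190 to 28599386 in Eahy. The lowest count of any member in any library was 68.5. The first principal component held 78.7% of the variance and separated the lines, while Rho0 replicate 4 stood apart on the second, which held 6.24%. Endothelial markers summed to 4799 to 5290 CPM (counts scaled to the TMM-adjusted size of each library) in Rho0 and 5055 to 5534 CPM in Eahy. Of 8 such markers, PECAM1 was called higher in Rho0 (log2 fold change 0.96) and 3 were lower, CDH5 (-0.73), ESAM (-0.64) and EGFL7 (-0.59), and CLDN5 was near the floor in both lines, with 21 counts over the Rho0 libraries and 43 over the Eahy libraries. Epithelial markers summed to 684 to 1126 CPM in Rho0 and 1733 to 1927 CPM in Eahy, mostly keratins KRT8 and KRT18. Of 8 such markers, 2 were called higher and 3 lower, KRT19 and ELF3 being near 0 in both lines. Fibroblast markers summed to 1.28 to 1.98 CPM in Rho0 and 1.70 to 2.51 CPM in Eahy, with 1 of 6 called higher and 1 lower. Leukocyte markers summed to 0.903 to 1.26 CPM in Rho0 and 0.642 to 0.876 CPM in Eahy, with 1 of 4 called higher and CD3E at 0 in every library. Over all genes tested, 29.0% were called higher and 25.4% lower. The part of these marker shifts in the results below was not tested. In bulk libraries, fewer cells of a type and less RNA per cell cannot be told apart.

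Most of the cholesterol genes were expressed at a lower level in Rho0. In edgeR's quasi-likelihood test, adjusted over all 15184 genes, 25 of the 31 members were lower in Rho0, against 25.4% of all genes tested. A further 2 members, GGPS1 and INSIG2, were higher, against 29.0% of all genes, and 4 were not called (PMVK, IDI1, ABCA1 and SOAT1). In either direction 54.4% of all genes were called, so a call by itself is common in this comparison. The median log2 fold change (Rho0 over Eahy) was -0.86 over the members and 0.05 over all genes tested. Of the members, 13 were called lower by at least 1 log2 unit, against 5.51% of all genes. No member was called higher by that much, against 8.76% of all genes. In 27 of the 31 members the 4 Rho0 libraries lay wholly above or wholly below the 4 Eahy libraries, against 50.9% of all genes tested. These were the 27 called members. All 4 members not called had overlapping libraries. Without Rho0 replicate 4 the counts were 27 lower and 2 higher, and without Rho0 replicate 2 they were 25 and 2.

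**Figure D1:**
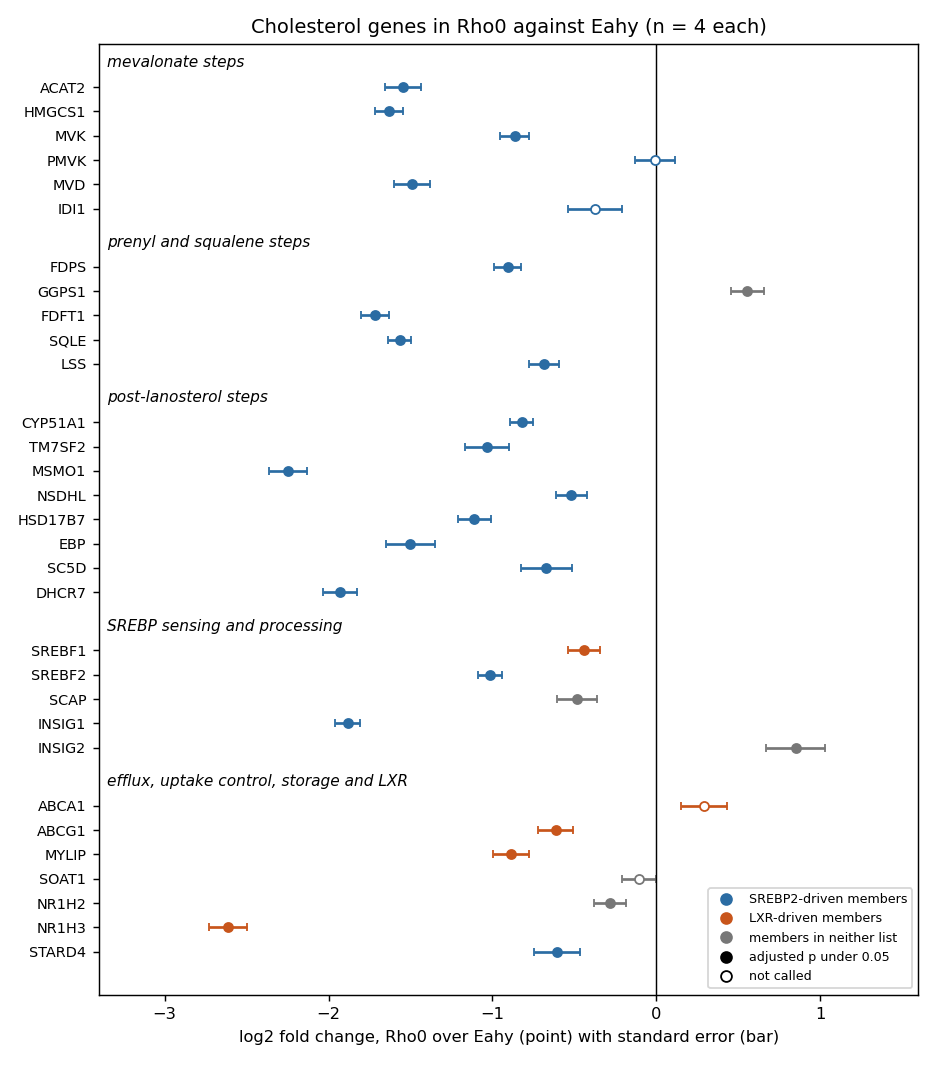
Fitted log2 fold change (Rho0 over Eahy, x axis) of each of the 31 members in pathway order, with its standard error as a bar; filled points were called and open points were not. Points run from -2.61 (NR1H3) to 0.85 (INSIG2), and GGPS1 and INSIG2 are the filled points right of 0.

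The upstream sequences of 5 members were searched for letters that SREBP2 and its partner NF-Y are known to bind. They are SREBF2 and INSIG1, from the 4 sensing genes lower in Rho0, and MSMO1, the enzyme gene with the largest fall. INSIG2 and GGPS1, the pair that was higher, complete them. The lines give the 250 bases before the RefSeq start on GRCh38.p14, all on the plus strand, from chr22:41832855-41833104, chr7:155297628-155297877, chr4:165327419-165327668, chr2:118088221-118088470 and chr1:235326966-235327215 in that order. Capitals mark a sterol regulatory element (SRE, TCACNCCAC), an NF-Y box (CCAAT or its reverse complement ATTGG) or an E-box of the kind SREBPs bind (TCACGTGA).
SREBF2: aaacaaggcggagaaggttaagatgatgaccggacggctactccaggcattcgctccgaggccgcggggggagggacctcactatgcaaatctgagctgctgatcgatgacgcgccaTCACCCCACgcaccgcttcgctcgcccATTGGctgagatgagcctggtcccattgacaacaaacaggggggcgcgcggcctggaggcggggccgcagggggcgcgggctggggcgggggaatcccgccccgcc
INSIG1: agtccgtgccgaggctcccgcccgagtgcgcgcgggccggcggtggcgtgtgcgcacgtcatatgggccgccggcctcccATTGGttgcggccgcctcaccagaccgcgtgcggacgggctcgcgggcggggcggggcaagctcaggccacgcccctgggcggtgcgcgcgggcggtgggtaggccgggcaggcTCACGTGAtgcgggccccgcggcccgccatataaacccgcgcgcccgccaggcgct
MSMO1: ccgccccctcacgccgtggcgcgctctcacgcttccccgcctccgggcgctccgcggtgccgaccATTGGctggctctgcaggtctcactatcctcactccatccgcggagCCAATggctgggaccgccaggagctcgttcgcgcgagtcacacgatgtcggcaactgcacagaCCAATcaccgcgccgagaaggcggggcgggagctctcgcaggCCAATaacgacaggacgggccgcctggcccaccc
INSIG2: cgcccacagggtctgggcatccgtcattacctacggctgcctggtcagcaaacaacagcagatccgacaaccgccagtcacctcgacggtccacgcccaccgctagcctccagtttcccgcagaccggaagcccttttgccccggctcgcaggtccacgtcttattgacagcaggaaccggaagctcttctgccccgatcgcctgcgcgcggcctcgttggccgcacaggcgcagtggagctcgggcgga
GGPS1: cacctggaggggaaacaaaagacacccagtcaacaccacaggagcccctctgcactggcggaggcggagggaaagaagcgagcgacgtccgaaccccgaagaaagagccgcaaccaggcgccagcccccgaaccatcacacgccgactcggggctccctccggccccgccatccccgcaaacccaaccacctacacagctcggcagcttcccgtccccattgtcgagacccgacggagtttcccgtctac

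SREBF2 held the SRE and an NF-Y box, INSIG1 held an NF-Y box and the E-box, and MSMO1 held 4 NF-Y boxes. INSIG2 and GGPS1 held none of these letters in the window. The same was true of SREBF1, SCAP, CYP51A1, NR1H3 and NR1H2, which were lower in Rho0 and are not printed. Promoters on chromosome 8, which holds 2 members (FDFT1 and SQLE), were left out of the search and of the promoters compared. With these left out, RefSeq windows of 250 bases before to 50 after the start covered 27 of the 31 members. ACAT2 and ABCG1 had no window among the promoters used. Motifs were searched on both strands with overlaps between motifs allowed. The NF-Y box stood in 17 of the 27 windows, against 34.6% of 35116 promoters. It stood in 15 of 18 SREBP2-driven members and 1 of 4 LXR-driven members. By call, it stood in 16 of 21 members lower in Rho0, in 1 of 4 not called and in 0 of 2 that were higher. The SRE stood in 1 of 27 windows (SREBF2), against 1.13% of all promoters, and the E-box in 1 of 27 (INSIG1), against 0.98%. The GC box GGGCGG stood in 24 of 27, against 45.0% of all promoters and 56.3% of those of protein-coding genes. The LXR element DR4, the letters AGGTCA as a direct repeat with 4 bases between, stood in 0 of 27, against 0.0199%. A match describes letters and not binding, and the absence of these letters from a window says nothing of the factor.

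The mevalonate steps opened the pathway with lower levels at 4 of their 6 genes, against 25.4% of all genes tested. HMGCS1, which makes HMG-CoA, was 3.09-fold lower: its level was 15.0, 16.3, 15.1 and 17.7 CPM in Rho0 replicates 1 to 4, against 49.8, 52.2, 44.8 and 51.7 CPM in Eahy (log2 fold change -1.63, SE 0.09, adjusted p = 9.4e-08). No Rho0 library came near the lowest Eahy library. ACAT2, the cytosolic thiolase that joins acetyl-CoA units, measured 8.52, 7.75, 7.50 and 8.18 CPM in Rho0, against 23.0, 26.1, 19.1 and 25.4 CPM in Eahy (-1.55, SE 0.11, adjusted p = 1.0e-06). MVD, the decarboxylase that yields isopentenyl diphosphate, had 28.2, 25.1, 22.4 and 19.3 CPM in Rho0, against 63.5, 69.2, 67.6 and 66.3 CPM in Eahy (-1.49, SE 0.11, adjusted p = 1.2e-06). Mevalonate kinase, MVK, fell less, averaging 9.91 ± 0.979 CPM in Rho0 and 18.0 ± 0.617 CPM in Eahy (SD, n = 4 each; log2 fold change -0.86).

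The remaining pair of mevalonate genes was not called, and its libraries overlapped. PMVK, the kinase that acts after MVK, had 17.0, 12.9, 13.2 and 11.6 CPM in Rho0, against 13.3, 14.4, 13.0 and 14.4 CPM in Eahy, a log2 fold change of -0.01 (SE 0.12, adjusted p = 0.96). PMVK was called higher with library size in place of TMM scaling (0.38, adjusted p = 0.020) and with a correction for GC content and transcript length (0.23, adjusted p = 0.019). IDI1, the isomerase of isopentenyl diphosphate, had 7.46, 8.36, 8.27 and 11.1 CPM in Rho0, against 10.2, 12.3, 9.01 and 14.3 CPM in Eahy (-0.37, SE 0.17, adjusted p = 0.080). IDI1 was called lower in 6 of 18 alternatives: without Rho0 replicate 4 (-0.53, adjusted p = 0.0097), without Eahy replicate 3 (-0.47, adjusted p = 0.038), with DESeq2 size factors (-0.41, adjusted p = 0.0497), with the DESeq2 Wald test (-0.41, adjusted p = 0.038), with a replicate block (-0.37, adjusted p = 0.020) and with the length and GC correction (-0.51, adjusted p = 0.0029). With library size alone its log2 fold change was 0.014.

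The branch point after farnesyl diphosphate showed opposite calls. FDPS, which makes farnesyl diphosphate, averaged 71.2 ± 7.72 CPM in Rho0 and 133 ± 4.64 CPM in Eahy (-0.91, SE 0.08). FDFT1, squalene synthase, commits farnesyl diphosphate to sterols and was 3.29-fold lower, with 83.1, 79.1, 76.0 and 64.5 CPM in Rho0, against 241, 242, 262 and 250.4 CPM in Eahy (-1.72, SE 0.09, adjusted p = 6.6e-08). GGPS1 (ENSG00000152904, chr1:235327350-235344532 in GRCh38) takes the same precursor to geranylgeranyl diphosphate, used for protein prenylation. It had 18.5, 21.4, 21.4 and 23.5 CPM in Rho0, against 14.4, 15.9, 12.8 and 14.5 CPM in Eahy, 1.47-fold higher (0.56, SE 0.10, adjusted p = 8.2e-04). Every Rho0 library exceeded every Eahy library. Scaled to transcript length, the ratio of GGPS1 to FDFT1 was 0.262 ± 0.0541 in Rho0 and 0.0534 ± 0.00641 in Eahy (SD, n = 4 each), with ranges of 0.205 to 0.335 and 0.0449 to 0.0603. The annotation gives GGPS1 138 exon bases shared with ARID4B on the opposite strand and 1422 shared with TBCE on the same strand. ARID4B averaged 37.9 CPM in Rho0 and 24.8 CPM in Eahy. Whether counting used strand is not stated, and strand could not separate the bases shared with TBCE. The part of these shared bases in the GGPS1 level was not tested.

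Squalene oxidation and cyclisation were also lower. SQLE, the oxygenase that makes squalene epoxide and a rate-limiting step of the pathway, had 31.5, 31.8, 30.6 and 34.1 CPM in Rho0, against 91.6, 91.0, 99.7 and 97.1 CPM in Eahy (-1.57, SE 0.07, adjusted p = 2.6e-08). LSS, lanosterol synthase, fell less, averaging 60.2 ± 6.43 CPM in Rho0 and 96.6 ± 6.26 CPM in Eahy (-0.68, SE 0.09).

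All 8 enzymes after lanosterol were lower in Rho0, against 25.4% of all genes tested. Their log2 fold changes ran from -2.25 to -0.52 around a median of -1.07. MSMO1 (ENSG00000052802, chr4:165327623-165343160), the oxidase that removes methyl groups at carbon C4, fell furthest among the enzymes. It had 6.76, 8.51, 9.08 and 9.62 CPM in Rho0, against 37.1, 42.4, 38.2 and 43.4 CPM in Eahy, 4.75-fold lower (-2.25, SE 0.12, adjusted p = 8.6e-08). DHCR7, which closes one branch of the pathway by reducing 7-dehydrocholesterol, had 26.7, 31.2, 24.9 and 25.4 CPM in Rho0, against 92.9, 100.2, 120.2 and 97.5 CPM in Eahy, 3.81-fold lower (-1.93, SE 0.10, adjusted p = 1.2e-07). The sterol isomerase EBP had 18.1, 15.3, 12.9 and 11.5 CPM in Rho0, against 41.0, 36.4, 49.1 and 36.8 CPM in Eahy (-1.50, SE 0.15, adjusted p = 1.3e-05). No Rho0 library reached the lowest Eahy library in any of the 8 enzymes after lanosterol, against 24.3% of all genes tested.

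The other post-lanosterol enzymes changed less. The ketoreductase HSD17B7 averaged 5.04 ± 0.235 CPM in Rho0 and 10.9 ± 0.944 CPM in Eahy (-1.11), and its pseudogene copy HSD17B7P2 averaged 0.580 CPM in Rho0 and 0.123 CPM in Eahy. The sterol reductase TM7SF2 averaged 6.22 ± 1.15 CPM in Rho0 and 12.6 ± 0.947 CPM in Eahy (-1.03). CYP51A1, the demethylase that acts on lanosterol, averaged 33.7 ± 2.34 CPM in Rho0 and 59.5 ± 0.443 CPM in Eahy (-0.82). SC5D, the desaturase before DHCR7, averaged 8.77 ± 2.10 CPM in Rho0 and 14.1 ± 1.27 CPM in Eahy (-0.67, adjusted p = 0.0043). NSDHL, the decarboxylating dehydrogenase that follows MSMO1, averaged 22.0 ± 2.63 CPM in Rho0 and 31.4 ± 1.74 CPM in Eahy (-0.52), the smallest fall of the 8. All these values are means ± SD over 4 libraries a line. With library size in place of TMM, NSDHL (-0.13) and SC5D (-0.28) were not called.

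Some members share exon bases with another annotated gene. Reads over bases shared on opposite strands cannot be told apart if strand was not used in counting. Strand cannot separate reads over bases shared on the same strand. On the opposite strand, ACAT2 shares 1458 exon bases with SOD2-OT1, 1141 with SOD2 and 397 with TCP1. MVK shares 306 with MMAB and SREBF1 556 with RAI1, also on the opposite strand. FDPS shares 693 with RUSC1-AS1 and IDI1 643 with IDI2-AS1 in the same way. HMGCS1 shares 703, LSS 448 and 122, and FDFT1 217 with opposite-strand loci that have only clone names. SREBF2 shares 280 and STARD4 124 with their own antisense genes. On the same strand, CYP51A1 shares 2844 of its 3584 exon bases with a locus that has only a clone name, and TM7SF2 shares 16 with VPS51.

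**Figure D2:**
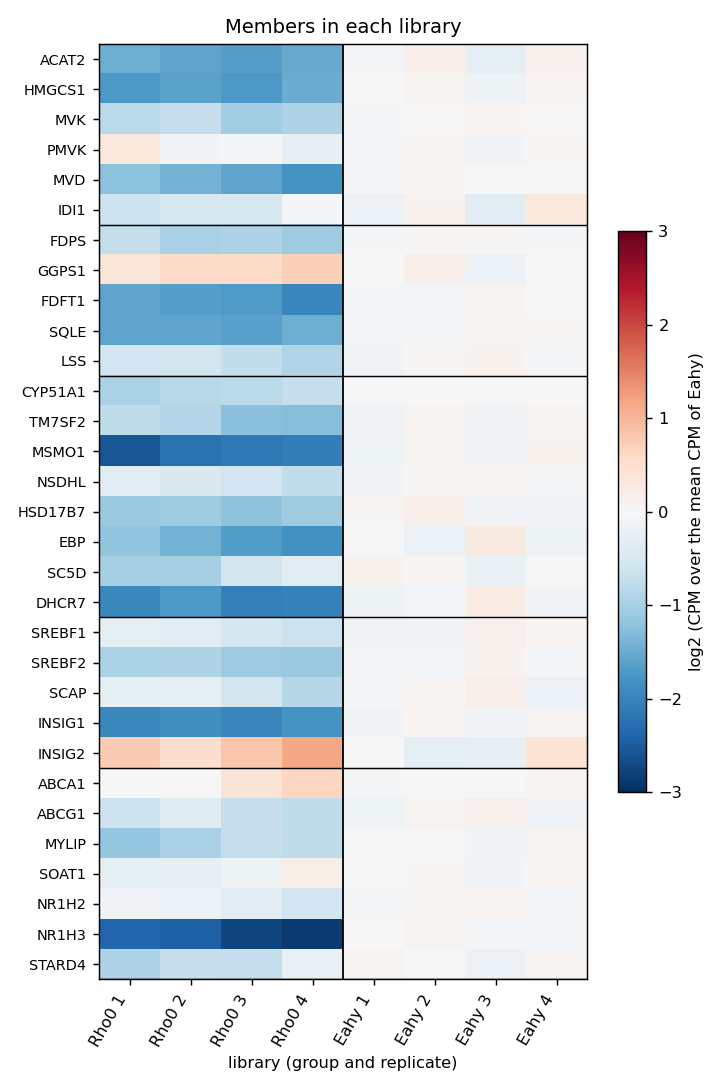
Each member in each library as log2 of its CPM over the mean CPM of Eahy, with the 4 Rho0 libraries left of the 4 Eahy libraries and genes in pathway order. Negative (lower than the Eahy mean) colours fill most Rho0 columns for the synthesis genes (PMVK, at a log2 fold change of -0.01, is near 0), and GGPS1 and INSIG2 show the opposite sign.

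Sterol sensing split between its paired genes. INSIG1 (ENSG00000186480, chr7:155297776-155310235), which retains SCAP and is itself a SREBP2 target, had 24.7, 26.6, 23.9 and 27.5 CPM in Rho0, against 89.7, 98.7, 89.7 and 101 CPM in Eahy, 3.69-fold lower (-1.88, SE 0.08, adjusted p = 1.8e-08). INSIG2 (ENSG00000125629, chr2:118088452-118110997), which does the same work but is not a usual SREBP2 target, had 8.72, 7.38, 9.17 and 11.6 CPM in Rho0, against 5.18, 4.21, 4.38 and 6.88 CPM in Eahy, 1.80-fold higher (0.85, SE 0.18, adjusted p = 0.0024). The lowest Rho0 library of INSIG2 lay only a little above the highest Eahy library. Per kb of transcript, the ratio of INSIG2 to INSIG1 was 0.417 ± 0.0708 in Rho0 (range 0.323 to 0.489) and 0.0632 ± 0.0130 in Eahy (range 0.0496 to 0.0794; SD, n = 4 each). INSIG1 was the more abundant of the pair per length in both lines.

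The transcription factor and its escort were lower too. SREBF2 (ENSG00000198911, chr22:41833079-41907308), which encodes SREBP2, had 135, 137, 122 and 119 CPM in Rho0, against 252, 254, 278 and 251 CPM in Eahy, 2.02-fold lower (-1.01, SE 0.07, adjusted p = 1.0e-06). SREBF1, which encodes SREBP1 and is a known LXR target, fell less, with 108, 104, 90.1 and 83.8 CPM in Rho0, against 121, 121, 144 and 136 CPM in Eahy (-0.44, SE 0.10, adjusted p = 0.0030). The length-scaled ratio of SREBF2 to SREBF1 was 1.06 ± 0.0555 in Rho0 and 1.58 ± 0.0933 in Eahy (SD, n = 4 each). SCAP had 98.5, 98.0, 82.7 and 67.3 CPM in Rho0, against 116, 126, 134 and 107 CPM in Eahy (-0.48, SE 0.12, adjusted p = 0.0071). With library size in place of TMM scaling, SREBF1 (-0.05) and SCAP (-0.09) were not called. STARD4, a cytosolic sterol carrier and SREBP2 target, averaged 21.2 ± 4.74 CPM in Rho0 and 32.4 ± 2.50 CPM in Eahy (-0.60, adjusted p = 0.0041). With library size alone STARD4 was not called (-0.21, adjusted p = 0.29), and the length and GC correction moved it to -1.04.

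The largest change of any member was in a sterol receptor. NR1H3 (ENSG00000025434, chr11:47248300-47269032), which encodes LXR alpha and is also a target of LXR, had 7.60, 7.23, 5.87 and 5.43 CPM in Rho0, against 39.7, 42.1, 39.0 and 38.0 CPM in Eahy, 6.12-fold lower (-2.61, SE 0.11, adjusted p = 2.6e-08). NR1H3 shares 189 exon bases with ACP2 on the opposite strand, whose level averaged 47.5 CPM in Rho0 and 118 CPM in Eahy. NR1H2, which encodes the broadly expressed LXR beta, had 92.6, 87.9, 79.9 and 67.1 CPM in Rho0, against 96.5, 102, 103 and 96.0 CPM in Eahy (-0.28, SE 0.10, adjusted p = 0.030). That call was lost when Rho0 replicate 3 (adjusted p = 0.077) or Eahy replicate 1 (0.050, just above the threshold), 2 (0.072) or 3 (0.071) was left out. The length-scaled ratio of NR1H3 to NR1H2 was 0.0583 ± 0.00305 in Rho0 and 0.292 ± 0.0120 in Eahy (SD, n = 4 each).

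The exporters moved unequally. ABCA1 (ENSG00000165029, chr9:104781002-104928237), which loads cholesterol onto apolipoprotein A-I, had 11.1, 11.3, 14.5 and 17.3 CPM in Rho0, against 10.9, 11.0, 11.0 and 11.8 CPM in Eahy (0.29, SE 0.14, adjusted p = 0.10). ABCA1 was not called, and its 2 lower Rho0 libraries lay within the range of Eahy. Without Rho0 replicate 1 it was called higher (0.36, adjusted p = 0.032), and without Rho0 replicate 4 its log2 fold change was 0.14. ABCG1, which passes cholesterol to high-density lipoprotein, had 13.0, 15.5, 12.5 and 11.8 CPM in Rho0, against 18.3, 21.3, 21.9 and 18.7 CPM in Eahy (-0.61, SE 0.11, adjusted p = 6.2e-04). With library size in place of TMM, ABCG1 was not called (-0.22) and ABCA1 was called higher (0.69). MYLIP, an LXR target whose ubiquitin ligase lowers lipoprotein receptor levels at the cell surface, averaged 8.77 ± 1.20 CPM in Rho0 and 16.2 ± 0.718 CPM in Eahy (SD, n = 4 each; -0.89, SE 0.11, adjusted p = 5.5e-05). SOAT1, which stores cholesterol as esters, had 23.2, 24.0, 25.6 and 32.1 CPM in Rho0, against 28.0, 29.1, 26.8 and 29.6 CPM in Eahy, and was not called (-0.11, SE 0.11, adjusted p = 0.42). Without Rho0 replicate 4, its highest library, SOAT1 was called lower (-0.23, adjusted p = 0.016). It was also called lower with the length and GC correction (-0.39, adjusted p = 4.6e-05), while library size alone gave 0.29 and no call.

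**Figure D3:**
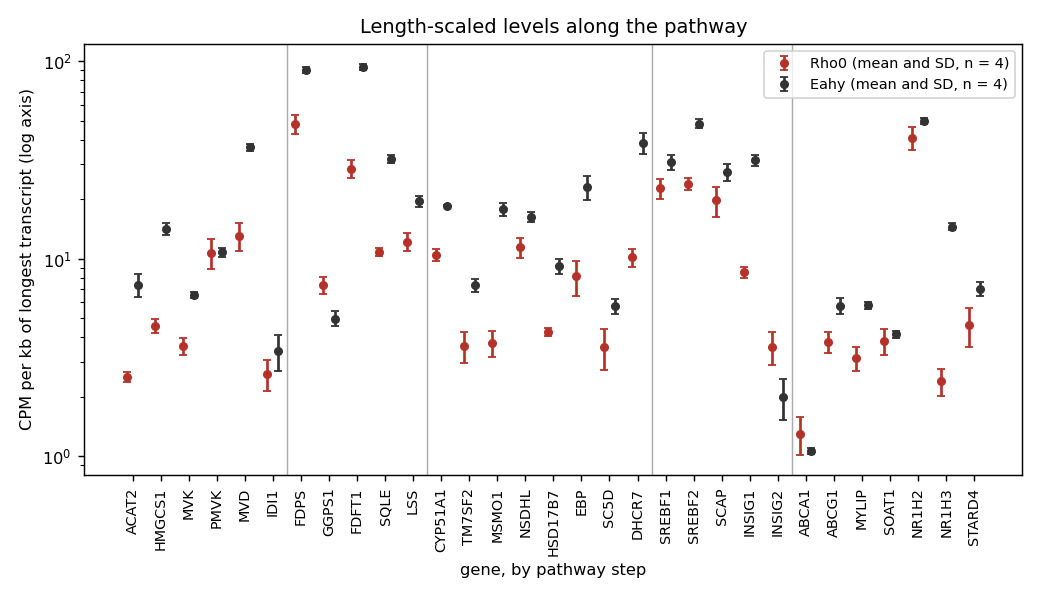
Mean CPM per kb of the longest transcript (log axis) for each member along the pathway, with SD over 4 libraries as bars and Rho0 (red) left of Eahy (black). FDFT1 stands highest in Eahy at 93.5 and FDPS highest in Rho0 at 48.2.

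Scaled by transcript length, FDFT1 (93.5 CPM per kb) and FDPS (90.3) held the highest levels in Eahy and did not differ there beyond their spread. In Rho0 the order was FDPS (48.2), NR1H2 (41.0) and FDFT1 (28.4). The length-scaled ratio of FDPS to FDFT1 was 1.70 ± 0.103 in Rho0 and 0.966 ± 0.0416 in Eahy (SD, n = 4 each). ABCA1 had the lowest length-scaled level of all members in both lines, 1.29 CPM per kb in Rho0 and 1.06 in Eahy.

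Set side by side, 19 of 21 SREBP2-driven members were lower in Rho0 and 0 were higher, with a median log2 fold change of -1.03. Of 5 LXR-driven members, 4 were lower and 0 were higher, with a median of -0.61, and the background for a lower call was again 25.4% of all genes. The summed level of the SREBP2-driven members was 620 ± 30.6 CPM in Rho0 and 1455 ± 42.5 CPM in Eahy, a ratio of 0.426, and that of the LXR-driven members was 138 ± 9.47 CPM in Rho0 and 218 ± 11.1 CPM in Eahy, a ratio of 0.635 (SD, n = 4 each). The mean of log2(CPM + 0.5) over LXR-driven members minus that over SREBP2-driven members was -0.38, -0.31, -0.26 and -0.33 in Rho0, against -0.63, -0.64, -0.57 and -0.63 in Eahy. All 4 Rho0 values lay above all 4 Eahy values. These are descriptions of small lists, and no test was run on the difference between them. With library size in place of TMM, 16 SREBP2-driven members were lower and 1 was higher, and 2 LXR-driven members were lower and 1 was higher. The medians were then -0.64 and -0.22, while that of all genes was 0.44. Measured from the median of all genes, the SREBP2-driven median lay between -1.17 and -1.0 and the LXR-driven between -0.75 and -0.58 over all settings tried.

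**Figure D4:**
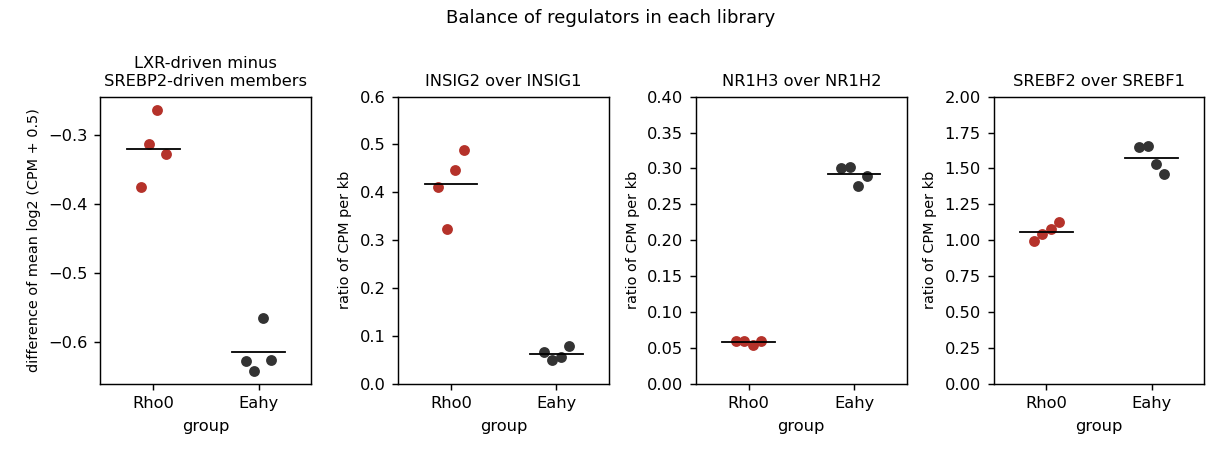
Per-library values, each point a library and each line a group mean, Rho0 left of Eahy. The panels give mean log2(CPM + 0.5) of LXR-driven minus SREBP2-driven members, and the length-scaled ratios of INSIG2 to INSIG1, NR1H3 to NR1H2 and SREBF2 to SREBF1; the ratio of INSIG2 to INSIG1 lies between 0.323 and 0.489 in Rho0 and between 0.0496 and 0.0794 in Eahy.

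Genes next to the list were counted over named lists, with up to 3 called genes of each given by size of change; further names follow where they complete a small count and were added after their values were seen. The shares to read these counts against are again 29.0% of all genes higher and 25.4% lower. Of 11 fatty acid genes on the SREBP1 side, 8 were lower and 2 higher, with a median of -0.67; the higher pair was ME1 (0.65) and GPAM (0.55). Stearoyl-CoA desaturase SCD averaged 153 ± 10.3 CPM in Rho0 and 710.0 ± 37.9 CPM in Eahy (-2.21, SE 0.08, adjusted p = 6.0e-09). Fatty acid synthase FASN averaged 252 ± 19.8 CPM in Rho0 and 630 ± 33.6 CPM in Eahy (-1.32), and acetyl-CoA synthetase ACSS2 48.2 ± 6.08 CPM in Rho0 and 95.7 ± 1.56 CPM in Eahy (-0.99). Of 9 other factors that process SREBPs or degrade sterol-regulated proteins, 2 were higher and 1 lower, both shares below those of all genes. They were ERLIN2 (43.3 ± 2.73 CPM in Rho0, 23.2 ± 2.11 in Eahy, 0.90) and RNF145 (43.9 ± 1.32 in Rho0, 28.3 ± 0.980 in Eahy, 0.63), with RNF139 lower (-0.46). Among other LXR targets and partners, LPCAT3 (-0.94) was lower and RXRA (0.43) was higher.

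Of 8 other lipoprotein and sterol uptake receptors, 5 could be tested, and 3 were higher in Rho0 and 0 lower, against 29.0% and 25.4% of all genes. LRP1, a large endocytic receptor, had 338, 424, 374 and 420.2 CPM in Rho0, against 136, 141, 152 and 136 CPM in Eahy, 2.75-fold higher (1.46, SE 0.09, adjusted p = 2.6e-07). SCARB1, the high-density lipoprotein receptor, averaged 35.6 ± 3.65 CPM in Rho0 and 22.5 ± 2.66 CPM in Eahy (0.66), and the scavenger receptor STAB1 613 ± 49.9 CPM in Rho0 and 486 ± 23.2 CPM in Eahy (0.34). Of 14 sterol transfer proteins, 3 were higher and 3 lower (21.4% each), below the shares of all genes. The oxysterol-binding-protein relatives OSBPL8 (0.95), OSBPL1A (0.76) and OSBPL11 (0.33) were higher, and TMEM97 (-0.62), the lysosomal sterol carrier NPC2 (-0.61) and GRAMD1B (-0.47) were lower. OSBPL8 varied most between its Rho0 libraries, at 33.0, 40.4, 49.3 and 76.2 CPM, against 27.0, 27.2, 20.6 and 28.3 CPM in Eahy.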

How the data were processed

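Per the labels' protocols, RNAzol extracts were cleaned with DNase and lithium chloride, and 2 ng of total RNA entered a stranded kit selecting poly-A transcripts. The authors deposited estimated counts for 38010 Ensembl genes and a second, log2 table of 12885 genes. Of 11402 genes with at least 20 counts, 97.8% equalled log2 of the deposited count times a factor per library plus 1, within a relative tolerance of 0.001. Kallisto, edgeR, limma and GRCh38 appear in the submitters' processing notes with no version or role. Neither the annotation release nor the use of strand in counting is given in the sources used here.

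Rounded estimated counts entered edgeR 4.0.16 under R 4.3.3, after filterByExpr (minimum count 10) and TMM scaling, with the line as the sole term of a quasi-likelihood F-test. Benjamini-Hochberg adjustment covered all 15184 genes, and a call means an adjusted p under 0.05. The standard error is the size of the log2 fold change divided by the square root of F. CPM used TMM-adjusted library sizes. Levels per kb used the longest protein-coding transcript of GENCODE 29 (GRCh38), which also gave gene coordinates. Promoters were from RefSeq (GRCh38.p14). All 31 members were matched by symbol to the deposited counts. The fit was tested on simulated data. TMM factors were 1.11 to 1.19 in Rho0 and 0.801 to 0.921 in Eahy. The biological coefficient of variation was 13.7%, and the replicates of a line differed by more than sampling noise. Some genes of the pathway are not reported here.

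All members and lists were chosen with earlier results of these data known. Named genes are all members and, from every other list, at most 3 called genes, those that changed most while averaging 5 CPM or more in the higher line. Names beyond these complete small counts or give cell type markers and were added after their values were seen. Alternatives changed the scaling (DESeq2 size factors, library size alone, totals without mitochondrial genes), the filter (none, or 50 counts in 4 libraries) or the tool (DESeq2 1.42.0, limma-voom, and limma-trend from limma 3.58.1 on the log2 table). Others added the replicate number as a block or left out single libraries. Correcting libraries for GC content and transcript length was added after seeing the data.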

Additional observations from a re-analysis of the deposited data

Results flagged for a closer look

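In 62 groups of 4 libraries (31 members in 2 lines), 3 held a library far from the other three of its line by Dixon's test, which flags about 1 group in 20 by chance. CYP51A1 was at 58.8 CPM in Eahy replicate 1, below the other Eahy libraries at 59.6 to 59.8 CPM. SREBF2 was at 278 CPM in Eahy replicate 3, above the other Eahy libraries at 251 to 254 CPM. ABCA1 was at 11.8 CPM in Eahy replicate 4, above the other Eahy libraries at 10.9 to 11.0 CPM.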

How the results depend on the processing

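Of the 31 members, 20 kept their direction and side of the threshold under all 18 alternatives. With library size alone, which moved the median of all genes to 0.44, 8572 genes were higher and 1540 lower (4399 and 3858 with TMM). Members lower then numbered 18 (25 with TMM) and SREBP2-driven lower 16 (19 with TMM). Members higher numbered 4, SREBP2-driven higher 1, LXR-driven higher 1 and LXR-driven lower 2, the SREBP2-driven median was -0.64 and the LXR-driven median -0.22. PMVK (0.38), IDI1 (0.014), SOAT1 (0.29) and NR1H2 (0.11) changed sign. NSDHL (-0.13), SC5D (-0.28), STARD4 (-0.21), SREBF1 (-0.05), SCAP (-0.09) and ABCG1 (-0.22) kept their sign but lost their call. PMVK also changed sign with no filter (0.0063), with 50 counts (0.018), without Rho0 replicate 4 (0.070; range over left-out libraries -0.17 to 0.070), Eahy replicate 2 (0.010) or Eahy replicate 4 (0.0095), and with the length and GC correction (0.23), where it was the 1 SREBP2-driven member called higher. The causes were not tested.

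Leaving out single libraries gave 24 to 27 members lower and 2 to 3 higher, 19 to 20 SREBP2-driven lower and 0 to 0 higher, 4 to 4 LXR-driven lower and 0 to 1 higher, and medians of -1.14 to -0.98 (SREBP2-driven) and -0.71 to -0.57 (LXR-driven). Over all genes the counts were 3774 to 4590 higher and 3415 to 4391 lower. Same-numbered libraries deviated with correlations of -0.13, 0.037, 0.0018 and 0.16, and not every library correlated best with its own number. Whether same-numbered libraries share more than a number cannot be told from these values. With the replicate block, 4215 genes were higher and 3802 lower, and members 2 and 26, IDI1 being gained (-0.37, adjusted p = 0.020). The lowest count of a member in a library was 68.5, so for the lowest members counting error is not small beside the spread between cultures.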

Other observations

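Other users of isoprenoid units were counted from a list of 12 genes, of which 5 were lower in Rho0 and 1 was higher, against 25.4% and 29.0% of all genes, with a median log2 fold change of -0.03. Both subunits of protein farnesyltransferase were lower: FNTB averaged 29.7 ± 3.38 CPM in Rho0 and 48.2 ± 1.80 CPM in Eahy (-0.70), and FNTA averaged 16.6 ± 2.47 CPM in Rho0 and 26.1 ± 2.51 CPM in Eahy (-0.65). The protease RCE1, which trims prenylated proteins, averaged 15.3 ± 2.32 CPM in Rho0 and 21.4 ± 1.82 CPM in Eahy (-0.49; SD, n = 4 each). ICMT (-0.33) and RABGGTB (-0.41) completed the lower genes, and PDSS2, of coenzyme Q synthesis, was the higher one (0.26); these names were added after their values were seen. Of 8 enzymes of oxysterols and sterol esters, 2 could be tested, and NCEH1, which hydrolyses cholesteryl esters, was higher in Rho0, at 54.1 ± 9.20 CPM, against 37.5 ± 3.01 CPM in Eahy (0.53, adjusted p = 0.0029).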
